A study of Mus musculus with 24 samples.

Results

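A set of 9 genes of B cells and of the lymphoid follicle, taken by symbol, was followed through 24 libraries of mouse colorectal tissue: Cd79a, Cd79b, Ms4a1, Cd22, Cr2, Pax5, Cxcr5, Cxcl13 and Mzb1. They are 9 of the 24346 genes listed in each library. The treatment label of every library was AOM/DSS, which stands for the mutagen azoxymethane followed by dextran sulfate sodium, an agent that inflames the colon, so the normal tissue is treated tissue as well. The genotype label was c-MAF_KO (KO) or wild type (WT). By title, the 9 KO tumors fell into groups of 3, called KO-1-hetero, KO-8-hetero and, as the third, KO-8-homo, where "hetero" and "homo" give the zygosity. The WT tumors were 4 WT-young libraries and 1 WT-old library, and each of these 5 groups had 2 normal libraries. What the numbers 1 and 8 stand for, the ages in weeks, the kind of knockout allele and which pieces came from the same mouse are not given in the sources used here. Nothing says that libraries of a group came from separate mice, so the p-values measure the spread between these libraries, which may in part be technical.

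B cells recognise antigen through a surface immunoglobulin that signals through the paired proteins CD79A and CD79B. In the colon they gather in lymphoid follicles, isolated or grouped into patches, where stromal cells release the chemokine CXCL13 and B cells enter by its receptor CXCR5. Activated B cells divide in germinal centers inside these follicles, and some mature into plasma cells, which lose CD20 and PAX5 and fill the lamina propria as makers of immunoglobulin A. The 9 genes cover these steps. Cd79a and Cd79b encode the signalling chains, and Ms4a1 encodes CD20. Cd22 encodes an inhibitory receptor, and Cr2 encodes complement receptor 2 of mature B cells and follicular dendritic cells. Pax5 encodes the transcription factor that holds B cell identity, and Mzb1 encodes a chaperone of immunoglobulin assembly that is abundant in plasma cells.

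In the mm10 build (GRCm38.p6, RefSeq), all 9 are protein-coding. Cd79a lies at chr7:24897497-24901858 and Cd22 on the same chromosome at chr7:30865404-30880342. Cd79b lies at chr11:106311341-106314562, Ms4a1 at chr19:11249679-11266149 and Cr2 at chr1:195136811-195176880. Pax5 spans chr4:44524748-44710694, Cxcr5 chr9:44511787-44526444, Cxcl13 chr5:95956939-95961068 and Mzb1 chr18:35647265-35650266.

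The 250 bases before the start are shown for Pax5, the regulator of the B cell genes, and for Cxcl13, the stromal signal that draws them in. The Pax5 window is chr4:44710695-44710944 on the minus strand and the Cxcl13 window chr5:95956689-95956938 on the plus strand, each 5′ to 3′ along its gene. Capitals mark a TATA box, TATAAA.

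Pax5: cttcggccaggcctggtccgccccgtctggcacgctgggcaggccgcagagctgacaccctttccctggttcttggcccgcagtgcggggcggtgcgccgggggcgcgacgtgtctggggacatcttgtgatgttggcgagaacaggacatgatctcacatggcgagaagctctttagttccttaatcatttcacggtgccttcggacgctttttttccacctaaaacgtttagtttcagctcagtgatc

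Cxcl13: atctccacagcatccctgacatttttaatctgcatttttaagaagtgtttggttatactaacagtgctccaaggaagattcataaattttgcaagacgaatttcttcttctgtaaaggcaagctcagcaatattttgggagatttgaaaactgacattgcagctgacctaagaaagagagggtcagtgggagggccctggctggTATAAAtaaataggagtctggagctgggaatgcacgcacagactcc

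The Cxcl13 window holds the TATA box 46 to 41 bases before the start, in the direction of the gene, and no other of the 5 members with a window in the RefSeq table held one. TATAAA, searched on both strands, occurs in 12.4% of 32851 windows of that length. GGGANTTCC, a pattern of NF-kappa-B sites, was in none of the 5 windows on either strand and in 1.43% of all windows. The same held for ATTTGCAT, the octamer of immunoglobulin promoters, in 1.6% of all windows. A looser NF-kappa-B pattern, searched earlier, had matched the Cr2 and Cxcl13 windows, so the absence holds for GGGANTTCC only. These matches describe letters in a window, and no binding was measured.

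Values are FPKM, a count of fragments corrected for transcript length and for the mapped fragments of the library, as deposited by the authors. Between 12074 and 13290 genes reached 1 FPKM in a library, and relative depth, read from the steps between low values, ran from 0.689 to 1.87 of the median library. Maf, the gene the genotype label names, measured 2.62 to 7.40 FPKM in the 9 tumors labelled KO and 1.63 to 2.26 FPKM in the 4 WT-young tumors, but 7.26 FPKM in the WT-old tumor. In normal tissue it ran from 1.52 to 6.27 FPKM with the KO label and from 1.37 to 2.82 FPKM with the WT label. Maf was thus not low in the libraries labelled KO, and KO below means the label. Epithelial genes (Epcam, keratins and others, 8 genes) summed to between 4150 and 14822 FPKM in every library, so epithelium was present throughout. In bulk tissue, fewer cells of a type and less RNA per cell cannot be told apart.

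The WT-old tumor library stood apart before any comparison. It was the highest of the 24 libraries for 9 of 9 members. Over all 13799 genes tested, 13.4% were highest in this library. Cd79a was at 404 FPKM there, against 58.7 FPKM in the next library, KO-1-hetero tumor 1. Ms4a1 was at 160 FPKM against 14.8 FPKM, and Pax5 at 31.3 FPKM against 3.12 FPKM, both again beside KO-1-hetero tumor 1. Cxcl13 was at 215 FPKM against 54.0 FPKM in KO-8-homo normal 1. The ratio to the next library was 10.8 for Ms4a1, 10 for Pax5, 9.15 for Cxcr5, 8.94 for Cd22, 8.26 for Cd79b, 6.88 for Cd79a and 5.91 for Cr2. It was smaller for Cxcl13 at 3.98 and smallest for Mzb1 at 2.52. All 9 members were thus more than 2-fold above the next library, as were 2.72% of all genes. Ranked by this ratio over all genes tested, Ms4a1 was the third and Pax5 the fourth.

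**Figure D1:**
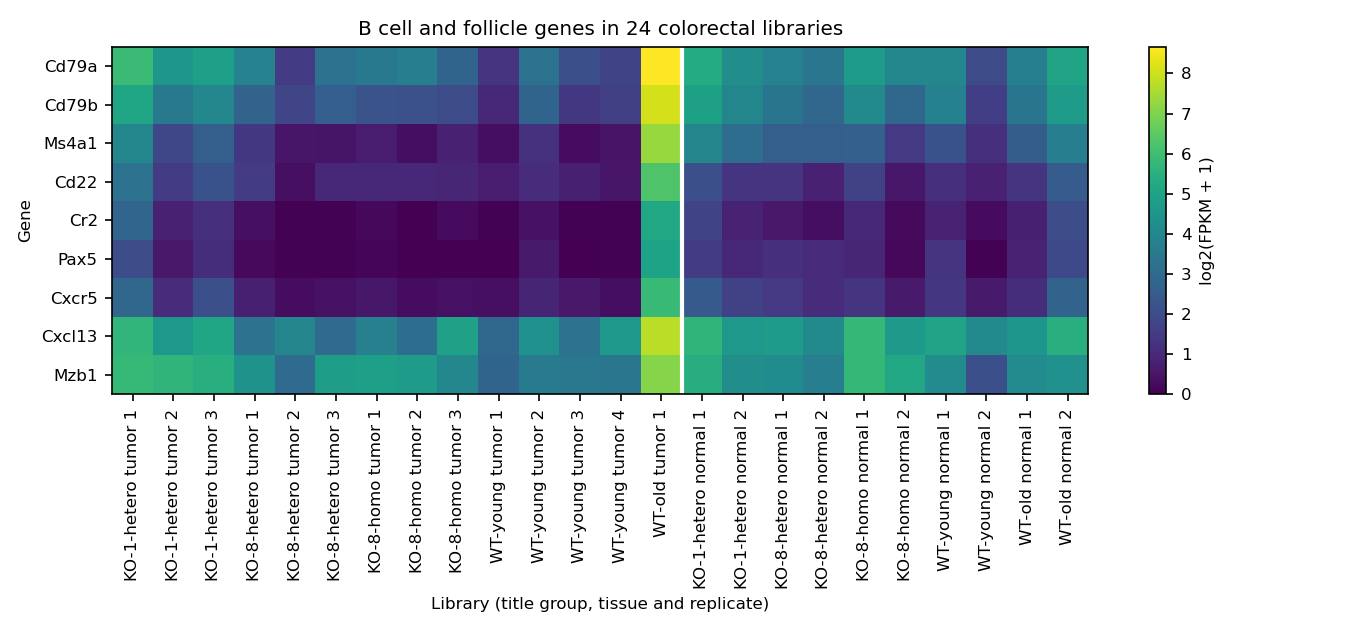
Level of the 9 genes (rows) in each of the 24 libraries (columns), as log2(FPKM + 1) by color, with tumors left of the white line and normal tissue right of it. The WT-old tumor is the brightest column in every row, from 31.3 FPKM for Pax5 to 404 FPKM for Cd79a.

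Genes of the other follicle compartments were mostly high in the same library. Of 20 further B cell identity genes (such as Blk, Bank1 and Tnfrsf13c), 20 were highest there and 19 exceeded the next library more than 2-fold, and their sum was 1366 FPKM against 64.4 to 219 FPKM in the other 23 libraries. Of 12 germinal center genes, 12 were highest there and 8 exceeded the next library more than 2-fold. Their sum was 171 FPKM against 17.0 to 39.2 FPKM. Mef2b and Gcsam, genes of germinal center B cells, were at 19.4 and 15.1 FPKM against medians of 0.189 and 0.285 FPKM in the other 23. Of 17 genes of follicle stroma and lymphoid chemokines, 14 were highest there and 8 exceeded the next library more than 2-fold. Ccl19, a chemokine of the T cell zone, had the largest ratio of these, at 96.9 FPKM and 9.19 times the next library. Those not highest there were Ltbr, Cxcl12 and Glycam1, at 0.274, 0.647 and 0.669 times the highest other library. These genes were looked up after the library had been seen to stand apart, and the values describe 1 library.

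Plasma cell genes were mixed. Their sum in the WT-old tumor was 959 FPKM, the eighth highest of 24 in a range of 260 to 1434 FPKM, and most of it was Jchain, which joins immunoglobulin A dimers, at 716 FPKM and 0.648 times the highest other library. Their mean log2(FPKM + 1), in which each gene counts alike, was the highest of the 24 at 4.40, with 4.22 in KO-8-homo normal 1 as the next. Of 11 plasma cell genes, 5 were highest there and 3 exceeded the next library more than 2-fold, namely Slamf7 at 3.42 times, Irf4 at 3.05 times and Tnfrsf13b at 2.63 times. Beside Jchain, those not highest there were Fkbp11 at 0.150, Sdc1 at 0.168, Prdm1 at 0.452, Xbp1 at 0.644 and Tnfrsf17 at 0.886 times the highest other library. T cell genes summed to 167 FPKM against 6.08 to 97.6 FPKM. Of these 12 genes, 11 were highest there and 4 exceeded the next library more than 2-fold. Macrophage genes summed to 928 FPKM against 162 to 918 FPKM. Smooth muscle genes summed to 2911 FPKM, above the other 13 tumors (182 to 1307 FPKM) and within normal tissue (940 to 7208 FPKM). Neutrophil genes summed to 44.3 FPKM, below the other 13 tumors (106 to 1941 FPKM) and near normal tissue (6.02 to 37.3 FPKM). Fibroblast genes, at 692 FPKM, lay within the other tumors (306 to 1190 FPKM). The epithelial sum, 4150 FPKM, was the lowest of the 24, with the others between 4698 and 14822 FPKM. The part of these differences in tissue makeup in the member values was not tested.

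The ratio between members also differed in this library. Mzb1 per Ms4a1, both in FPKM and so per length, was 0.853 in the WT-old tumor. It ran from 1.64 to 20.5 (median 3.15) in the 10 normal libraries and from 3.66 to 108 (median 20.0) in the other 13 tumors. The WT-old tumor was the one library with more Ms4a1 than Mzb1. Cd79a per Ms4a1 was 2.52 there, against 1.87 to 9.0 in normal tissue and 3.97 to 49.1 in the other 13 tumors. The paired chains kept closer to each other, with Cd79a per Cd79b at 1.48 in the WT-old tumor and 0.749 to 3.49 over the 24 libraries.

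Among the other tumor groups, KO-1-hetero had the highest mean for 9 of 9 members, while the order below it varied. The lowest mean was that of WT-young for 5 members, of KO-8-homo for Ms4a1, Pax5 and Cxcr5, and of KO-8-hetero for Cxcl13. For Cd79a the tumor mean was 36.7 ± 19.3 FPKM in KO-1-hetero (SD, n = 3), 9.48 FPKM in KO-8-homo, 7.93 FPKM in the other hetero group and 3.89 ± 3.06 FPKM in WT-young (SD, n = 4). The ranges of the last 3 groups overlapped, at 5.95 to 12.1, 1.89 to 13.2 and 1.45 to 8.34 FPKM. In normal tissue the Cd79a means were 28.7 FPKM in KO-1-hetero, 22.3 FPKM in WT-old, 20.6 FPKM in KO-8-homo, 11.5 FPKM in KO-8-hetero and then WT-young at 8.94 FPKM, each from 2 libraries. Each group in that order overlapped its neighbour except KO-8-homo and KO-8-hetero, whose libraries were at 25.9 and 15.2 FPKM and at 13.4 and 9.67 FPKM. Ms4a1 had its highest normal means in KO-1-hetero at 10.9 FPKM and in WT-old at 8.53 FPKM and its lowest in WT-young at 2.41 FPKM. The 2 libraries of a normal group could lie far apart. In WT-young normal tissue Mzb1 was at 16.9 and 3.32 FPKM and Cd79a at 15.0 and 2.92 FPKM.

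**Figure D2:**
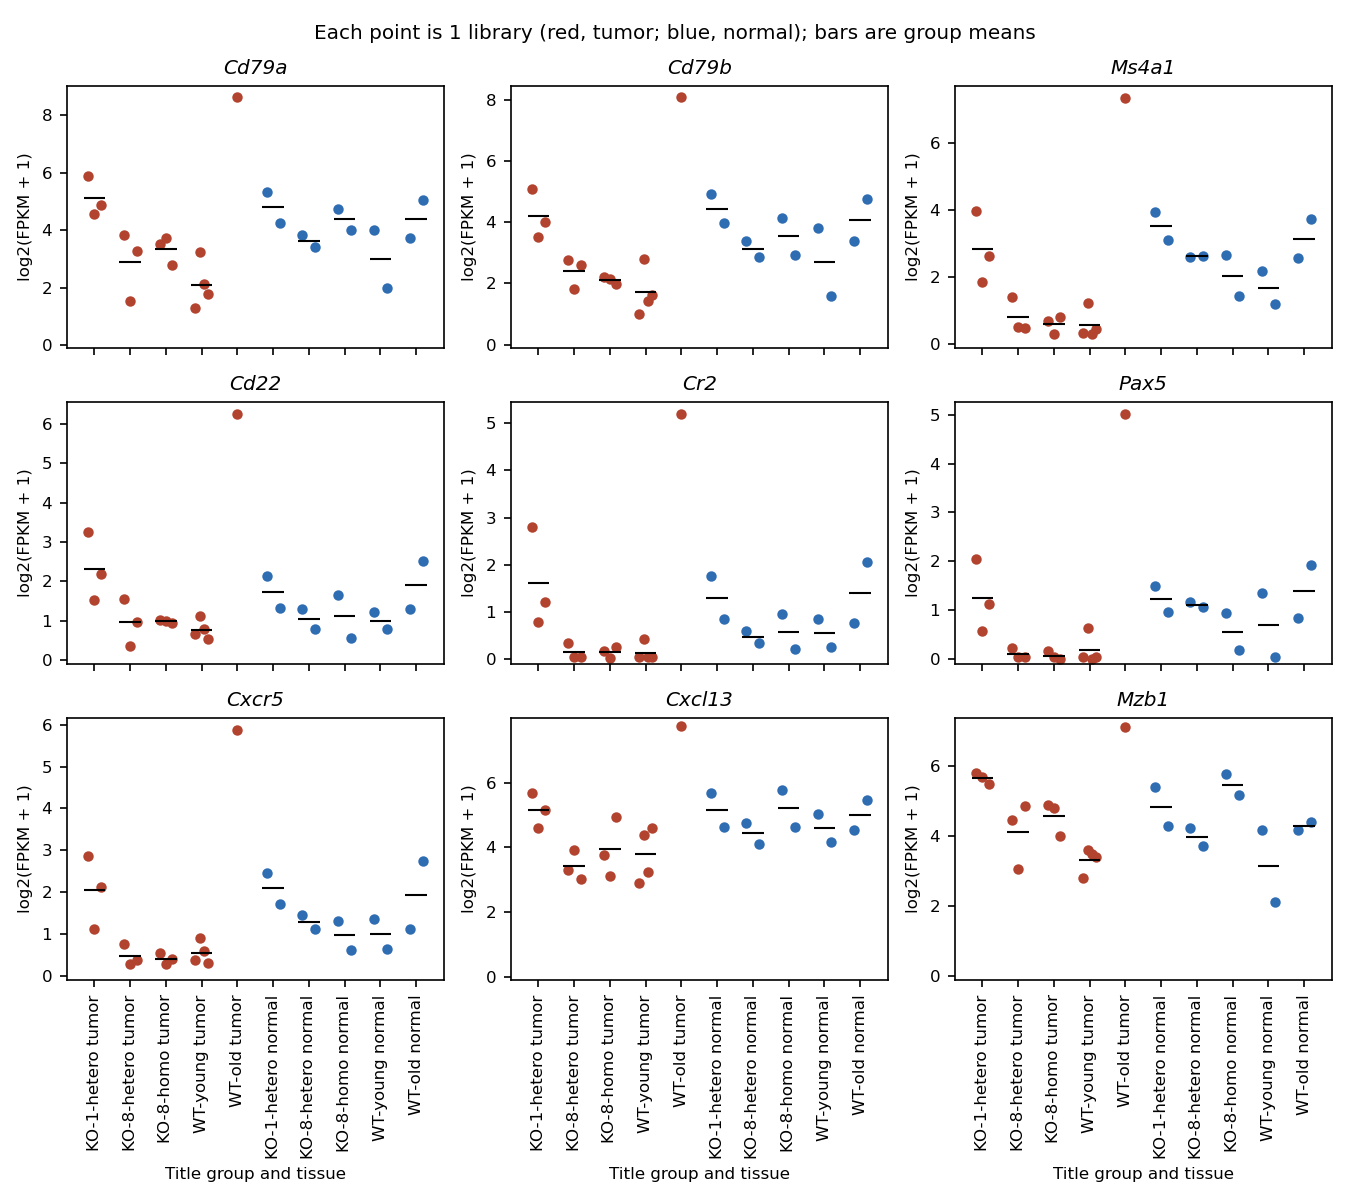
Level of each gene as log2(FPKM + 1) by title group, with red points for tumors and blue points for normal tissue, 1 point per library. Bars are group means. The WT-old tumor lies above every other point in all 9 panels, and the KO-1-hetero tumors, at 22.7 to 58.7 FPKM for Cd79a, lie above the WT-young tumors, at 1.45 to 8.34 FPKM.

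Whether tumors differ from normal tissue in B cell transcript was first asked within the KO label, with 9 tumors and 6 normal libraries. Ms4a1 ran from 0.247 to 14.8 FPKM (median 0.747) in the tumors and from 1.69 to 14.3 FPKM (median 5.22) in normal tissue. Tumors were mostly the lower group for this gene, but the ranges overlapped. The tumors differed by -1.31 on the log2 scale, a difference in mean log2(FPKM + 1), with an SE of 0.82 and a limma adjusted p of 0.193. Mzb1 ran from 7.24 to 54.2 FPKM (median 28.1) in the tumors and from 12.1 to 52.9 FPKM (median 26.5) in normal tissue, a difference of 0.02 (SE 0.545, adjusted p 0.979). The gene of mature B cells and that of plasma cells thus differed in these values, although neither passed the test. The difference between these genes was not tested. In all, 0 of 9 members passed a limma adjusted p of 0.05, where 47.2% of all genes did, and 0 of 9 had an unadjusted p below 0.05, where 54.4% did. The log2 fold changes were -0.49 for Cd79a, -0.80 for Cd79b, 0.13 for Cd22, -0.15 for Cr2, -0.49 for Pax5, -0.47 for Cxcr5 and -0.77 for Cxcl13. Their median over the 9 members was -0.49, against 0.02 over all genes.

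The WT-old tumor is outside that comparison, but it enters the spread that the model shares. Without it Ms4a1 fell in KO-labelled tumors by the same 1.31 on the log2 scale with an SE of 0.492 and a limma adjusted p of 0.0312. It was then 1 of 9 members called, against 49.8% of all genes called and 23.9% called lower, and the 1 of 9 with an unadjusted p below 0.05, against 56.2%. The other lists moved in several directions, given here from all 24 libraries. All 8 smooth muscle genes were lower in KO-labelled tumors (median -1.96) and 7 of 10 macrophage genes higher (median 0.75). Of 20 B cell identity genes, 0 passed (median -0.05), whereas without the WT-old tumor 2 were higher and 2 lower of 19 tested (median -0.08). The stroma and chemokine genes went from 4 higher of 17 to 7 of 16 without that library, and the T cell genes from 3 to 6 higher of 12. Of the 6 germinal center genes tested, 4 were higher, led by Pdcd1, an inhibitory receptor of follicular helper T cells, at 1.19, with S1pr2, a receptor that holds cells in the germinal center, at 0.98. Rgs13 was lower at -1.63 (limma adjusted p 0.00490). Rgs13 is known from germinal center B cells and also from tuft cells of the epithelium.

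With the WT label, 5 tumors were compared with 4 normal libraries, and the result turned on 1 library. Ms4a1 was at 0.256, 1.33, 0.233 and 0.386 FPKM in the tumors titled young and 160 FPKM in the 1 titled old. In normal tissue it was at 3.52 and 1.30 FPKM in WT-young and 4.94 and 12.1 FPKM in WT-old. Of the 5 tumors, 3 lay below all 4 normal libraries, WT-young tumor 2 lay within their range and the WT-old tumor far above it. With all libraries 0 of 9 members passed, where 30.4% of all genes did, and 0 of 9 had an unadjusted p below 0.05, where 42.5% did. The median log2 fold change of the members was 0.10, with 5 of 9 above 0. Without the WT-old tumor the median was -0.93 and 0 of 9 were above 0. Ms4a1 then fell by 1.83 (SE 0.66, limma adjusted p 0.0378), from -0.48 (SE 1.04, adjusted p 0.751) with it. It was the 1 of 9 members called, against 31.8% of all genes called and 15.5% called lower, and 4 of 9 had an unadjusted p below 0.05, against 43.0%. Mzb1 went from 0.37 with the WT-old tumor to -0.38 without it, and neither value passed (adjusted p 0.71 and 0.618).

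**Figure D3:**
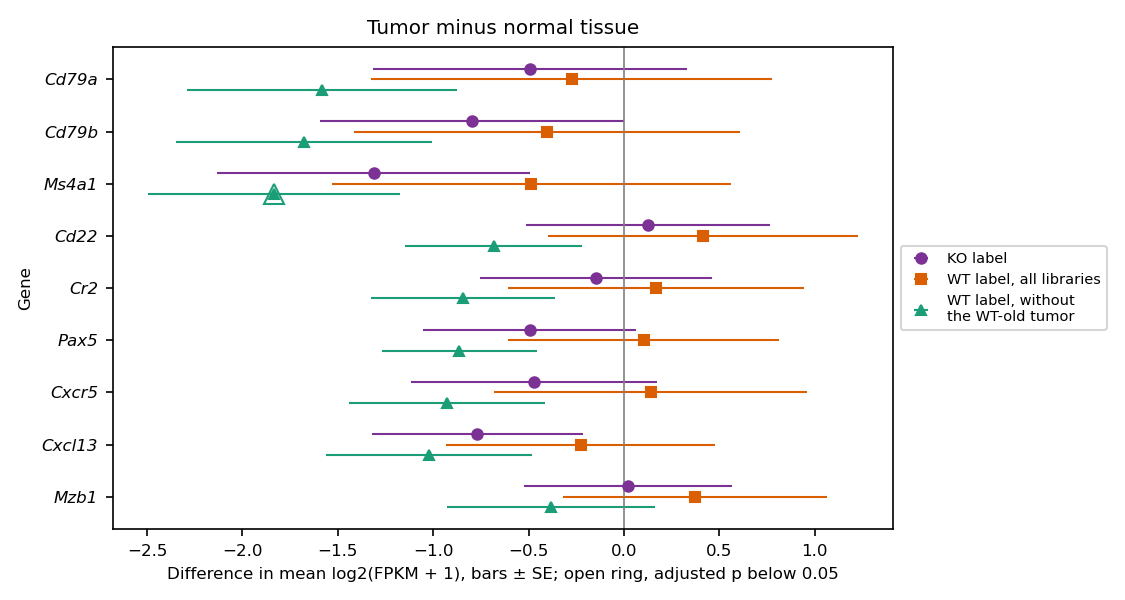
Difference in mean log2(FPKM + 1) between tumor and normal tissue for each gene, with bars of 1 SE, for the KO label, the WT label and the WT label without the WT-old tumor. Removing that library moves every WT value below 0, with Ms4a1 at -1.83, ringed as past an adjusted p of 0.05.

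Tumor and normal tissue were also compared within title groups, each with 2 normal libraries, in the model of 10 title groups. In KO-8-hetero, Ms4a1 was at 1.64, 0.443 and 0.410 FPKM in the tumors and 5.09 and 5.17 FPKM in normal tissue. In KO-8-homo it was at 0.620, 0.247 and 0.747 FPKM against 5.26 and 1.69 FPKM. In both groups every tumor was below every normal library. Ms4a1 fell by 1.81 in KO-8-hetero (SE 0.537, limma adjusted p 0.0129), a call lost without KO-8-hetero normal 2 (adjusted p 0.0868), and its difference of -1.43 in KO-8-homo did not pass (SE 0.537, adjusted p 0.0624). It was the 1 of 9 members called in KO-8-hetero (43.1% of all genes were), and 0 of 9 were called in KO-8-homo (23%), in KO-1-hetero (14.1%) and in WT-young (26.1%). At an unadjusted p below 0.05 there were 2, 3, 0 and 1 of 9 in these 4 groups, against 51.9%, 37.4%, 31.4% and 39.2% of all genes. Tumors lay wholly below normal tissue in 5 of 9 members in KO-8-hetero, as in 24.5% of all genes, and in 6 of 9 in KO-8-homo, as in 32.7%. Ms4a1, Pax5, Cxcr5 and Cd79b did so in both groups, 4 of 9 where 15.7% of all genes did. In KO-1-hetero, by contrast, Ms4a1 was at 14.8, 2.62 and 5.19 FPKM in tumors and 14.3 and 7.63 FPKM in normal tissue, and the ranges overlapped. Mzb1 there was at 54.2, 49.9 and 43.5 FPKM in tumors, above both normal libraries at 41 and 18.3 FPKM, a mean log2 difference of 0.81 (limma adjusted p 0.317). In KO-8-homo, Mzb1 was at 28.6, 26.7 and 15.0 FPKM in tumors, below 52.9 and 34.7 FPKM in normal tissue, a difference of -0.90 (adjusted p 0.235).

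The comparison named by the study, KO with WT in tumors, was also ruled by the WT-old tumor. With all 14 tumors 0 of 9 members passed a limma adjusted p of 0.05 (0.00725% of all genes did) and 0 of 9 had an unadjusted p below 0.05 (8.31% did). Their median log2 fold change was -0.45, with 2 of 9 above 0. Without the WT-old tumor the median was 0.65 and 9 of 9 were above 0. Again 0 of 9 passed (0.0145% of all genes did), while 3 of 9 had an unadjusted p below 0.05, as did 11.5% of all genes. Cd79a ran from 1.89 to 58.7 FPKM (median 12.1) in the 9 KO-labelled tumors. Its log2 fold change went from 0.36 (SE 0.874, adjusted p 0.942) to 1.67 (SE 0.6, adjusted p 0.329), and that of Ms4a1 from -0.52 (adjusted p 0.912) to 0.83 (adjusted p 0.578). Mzb1 went from 0.69 (adjusted p 0.782) to 1.45 (adjusted p 0.278), so it was above 0 in both. The WT label pools animals titled young and old, and age and this single library cannot be told apart in the tumors.

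Normal tissue gave no call by label. Mzb1 ran from 12.1 to 52.9 FPKM (median 26.5) in 6 KO-labelled and from 3.32 to 19.9 FPKM (median 16.9) in 4 WT-labelled normal libraries, and these ranges overlapped. The difference was 1.05 (SE 0.667, limma adjusted p 1). Of the 9 members 0 passed, as did 0.0% of all genes, and 0 of 9 had an unadjusted p below 0.05, as did 4.67%. The members' median was 0.13. The interaction of tissue and label likewise gave 0 of 9 (0.0% of all genes) and 0 of 9 at an unadjusted p below 0.05 (4.74%). Its median was -0.39 with the WT-old tumor and 0.52 without it.

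Single groups of tumors were set against the WT-young tumors next, and KO-1-hetero had the highest levels. Cd79a measured 58.7, 22.7 and 28.6 FPKM in the KO-1-hetero tumors and 1.45, 8.34, 3.34 and 2.45 FPKM in the 4 WT-young tumors. Every KO-1-hetero tumor exceeded every WT-young tumor. As a difference in mean log2(FPKM + 1), Cd79a rose by 3.01 (SE 0.593, limma adjusted p 0.0169). Of the 9 members, 6 passed, all higher (against 2.88% of all genes called and 1.63% called higher). At an unadjusted p below 0.05 there were 9 of 9, against 19.1% of all genes. Those that passed were Cd79a, Cd79b, Ms4a1, Cd22, Cxcr5 and Mzb1.

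Of the surface proteins, Cd79b was at 33.0, 10.4 and 15.2 FPKM against 1.01, 5.99, 1.66 and 2.11 FPKM and rose by 2.49 (SE 0.539, limma adjusted p 0.0265). Ms4a1 was at 14.8, 2.62 and 5.19 FPKM against 0.256, 1.33, 0.233 and 0.386 FPKM and rose by 2.24 (SE 0.449, adjusted p 0.0178). Cd22 was at 8.46, 1.89 and 3.55 FPKM against 0.581, 1.17, 0.708 and 0.438 FPKM and rose by 1.55 (SE 0.39, adjusted p 0.0423). In each of these genes tumor 1 was the highest and tumor 2 the lowest of the KO-1-hetero libraries, and WT-young tumor 2 was the highest of its group. Cr2 followed the same order at 6.02, 0.735 and 1.31 FPKM against 0.0267, 0.339, 0.0324 and 0.0251 FPKM, but its difference of 1.47 (SE 0.39, adjusted p 0.0513) missed the threshold.

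Pax5, the nuclear regulator, was at 3.12, 0.497 and 1.19 FPKM against 0.0222, 0.557, 0 and 0.0294 FPKM. WT-young tumor 2 lay above KO-1-hetero tumor 2, and the difference of 1.08 (SE 0.346, limma adjusted p 0.0982) did not pass. The chemokine Cxcl13 was at 50.4, 23.3 and 34.2 FPKM against 6.45, 19.8, 8.39 and 23.3 FPKM, 1.36 on the log2 scale (SE 0.496, adjusted p 0.144). WT-young tumor 4 and KO-1-hetero tumor 2 were nearly equal, so these groups overlapped slightly. Its receptor Cxcr5 was at 6.33, 1.16 and 3.38 FPKM against 0.292, 0.856, 0.500 and 0.236 FPKM and rose by 1.5 (SE 0.385, adjusted p 0.0455).

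Mzb1, the plasma cell gene, was at 54.2, 49.9 and 43.5 FPKM against 6.0, 11.1, 10.2 and 9.57 FPKM. It was the most even member relative to the mean of each group, with 49.2 ± 5.38 FPKM (SD, n = 3) against a WT-young mean of 9.22 ± 2.24 FPKM (SD, n = 4), and it rose by 2.32 (SE 0.449, limma adjusted p 0.0155). In KO-1-hetero tumor 2, where Ms4a1 was at 2.62 FPKM, Mzb1 stood at 49.9 FPKM. Counted by ranges, 7 of 9 members had every KO-1-hetero tumor above every WT-young tumor, as did 12.6% of all genes. The exceptions were Pax5 and Cxcl13. Against all 10 other tumors without the WT-old one, the KO-1-hetero tumors were higher in 6 of 9 members, as in 2.17% of all genes.

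**Figure D4:**
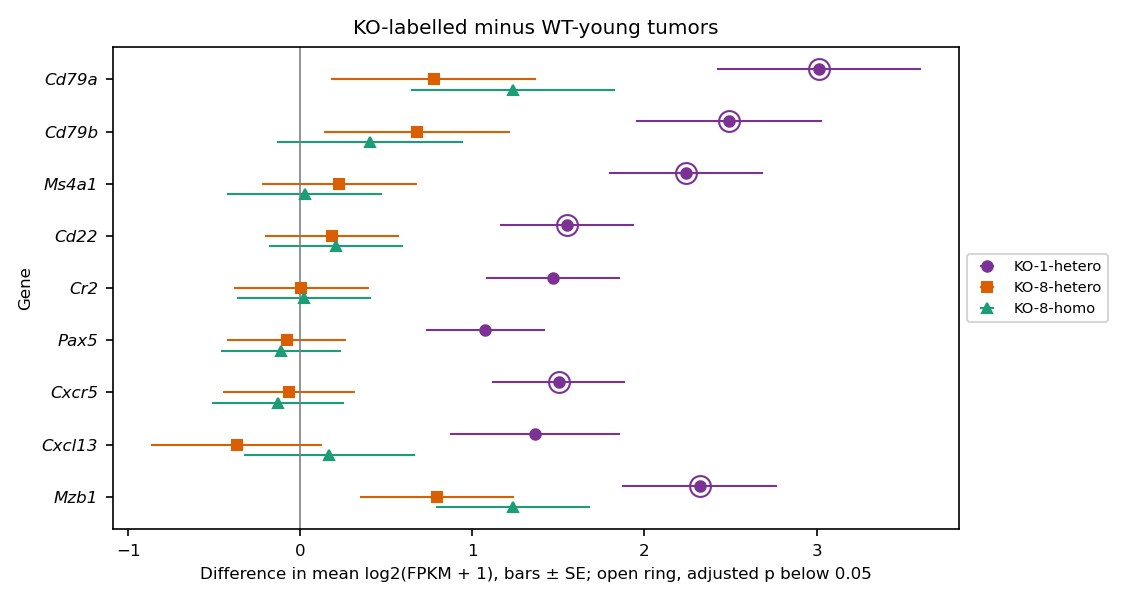
Log2 fold change of each gene in the tumors of the 3 KO groups against the same 4 WT-young tumors, with bars of 1 SE and rings where the adjusted p was below 0.05. The 6 ringed values are all in KO-1-hetero, from 1.5 for Cxcr5 to 3.01 for Cd79a.

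These calls rested on few libraries. Without KO-1-hetero tumor 1 or without tumor 3, 0 of 9 members passed limma, as did 0.131% and 0.109% of all genes (18 and 15 genes, down from 397). At an unadjusted p below 0.05 there were 7 of 9 members (12.6% of all genes) and 9 of 9 (14.3%). The members' median log2 fold change was then 1.09 and 1.67, against 1.55 with all libraries and -0.02 over all genes. Without tumor 2, 7 of 9 passed. Leaving out WT-young tumor 1, 2, 3 or 4 left 3, 4, 3 and 3 of 9. For these refits and the one without KO-1-hetero tumor 2, the share of all genes called is not reported here. Their counts thus do not show whether the members or the whole test changed. Cd22 and Cxcr5, nearest the threshold, also lost their calls with no filter on low values (limma adjusted p 0.0572 and 0.0614) and with only the compared groups in the fit (0.0511 and 0.0597).

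The further B cell identity genes were higher in KO-1-hetero in 11 of 20, with a median of 1.39. Vpreb3, a protein of the B cell lineage, rose by 1.84 (limma adjusted p 0.00782), Spib, a B cell transcription factor, by 1.90 (adjusted p 0.0145) and Fcrla, an Fc receptor-like protein of B cells, by 1.84 (adjusted p 0.0178). Of 11 plasma cell genes 4 were higher, led by Derl3, a factor of protein disposal in the endoplasmic reticulum, at 2.18 (adjusted p 0.0121), and Irf4, a regulator of plasma cell formation, at 1.44 (adjusted p 0.0172). Of 17 stroma and chemokine genes 4 were higher, among them Cxcl12, Ccr7 and Ccr6 at 1.41, 1.34 and 1.44. Of the 6 germinal center genes tested 2 were higher, Icos and Pdcd1 at 1.05 and 0.87, both of which helper T cells express.

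Genes of other cell types differed between the same tumors. Smooth muscle genes summed to 722 to 1090 FPKM in KO-1-hetero and to 182 to 380 FPKM in WT-young tumors, with 3 of 8 higher (Lmod1, Cnn1 and Des) and a median of 1.88, larger than that of the members. T cell genes summed to 51.1 to 97.6 FPKM against 20.5 to 34.7 FPKM, with 3 of 12 higher. Of 8 fibroblast genes 1 was higher (Fbln1), of 8 epithelial genes 1 was lower (Krt18), and of 10 macrophage and 6 neutrophil genes none passed. The part of these other cell types in the member values was not tested.

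The KO-8 groups stayed near the WT-young tumors, which serve as the same controls for all 3 KO groups. In KO-8-hetero, Cd79a was at 13.2, 1.89 and 8.71 FPKM and Mzb1 at 20.9, 7.24 and 28.1 FPKM, both overlapping WT-young. None passed (0 of 9, against 0.00725% of all genes), and 0 of 9 had an unadjusted p below 0.05, against 6.96%. The log2 fold changes were 0.77 for Cd79a (SE 0.593, limma adjusted p 0.771) and 0.80 for Mzb1 (SE 0.449, adjusted p 0.713), with a median of 0.18. In KO-8-homo, Cd79a was at 10.4, 12.1 and 5.95 FPKM and Mzb1 at 28.6, 26.7 and 15.0 FPKM, and every Mzb1 value exceeded every WT-young tumor. Mzb1 was the 1 of 9 members with that separation, which 9.81% of all genes had. Its difference of 1.24 (SE 0.449, adjusted p 0.322) did not pass. In all 0 of 9 passed (0.457% of all genes did), and Mzb1 was the 1 of 9 with an unadjusted p below 0.05, as were 10.1% of all genes. Ms4a1 in KO-8-homo, at 0.620, 0.247 and 0.747 FPKM, lay within the WT-young range, with a log2 fold change of 0.03.

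KO-1-hetero and KO-8-hetero, which share the zygosity word, were also set against each other. Cxcr5 was at 6.33, 1.16 and 3.38 FPKM against 0.701, 0.210 and 0.296 FPKM, without overlap. In 8 of 9 members every KO-1-hetero tumor exceeded every KO-8-hetero tumor, as did 6.51% of all genes, and the exception was Cd22. The log2 fold changes were 1.57 for Cxcr5 (SE 0.411), 2.01 for Ms4a1 (SE 0.48) and 2.24 for Cd79a (SE 0.634). None of the 9 passed, with limma adjusted p-values of 0.215, 0.215 and 0.242 for these genes, and 0.0% of all genes passed. At an unadjusted p below 0.05 there were 9 of 9 members, against 9.88% of all genes.

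Seen over the libraries, 7 members (all but Cxcl13 and Mzb1) varied together. Their pairwise Pearson r of log2(FPKM + 1) ran from 0.878 to 0.983 over the 24 libraries and from 0.792 to 0.956 over the 23 without the WT-old tumor. These are descriptions, since the libraries share groups and the values of a library share its depth and tissue makeup. Mzb1 followed Cd79a, which plasma cells keep, with r of 0.891 over 24 and 0.857 over 23 libraries. It followed Ms4a1, which they lose, with r of 0.654 and 0.490. Cxcl13, made by stroma rather than by B cells, had r of 0.875 and 0.787 with Ms4a1.

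**Figure D5:**
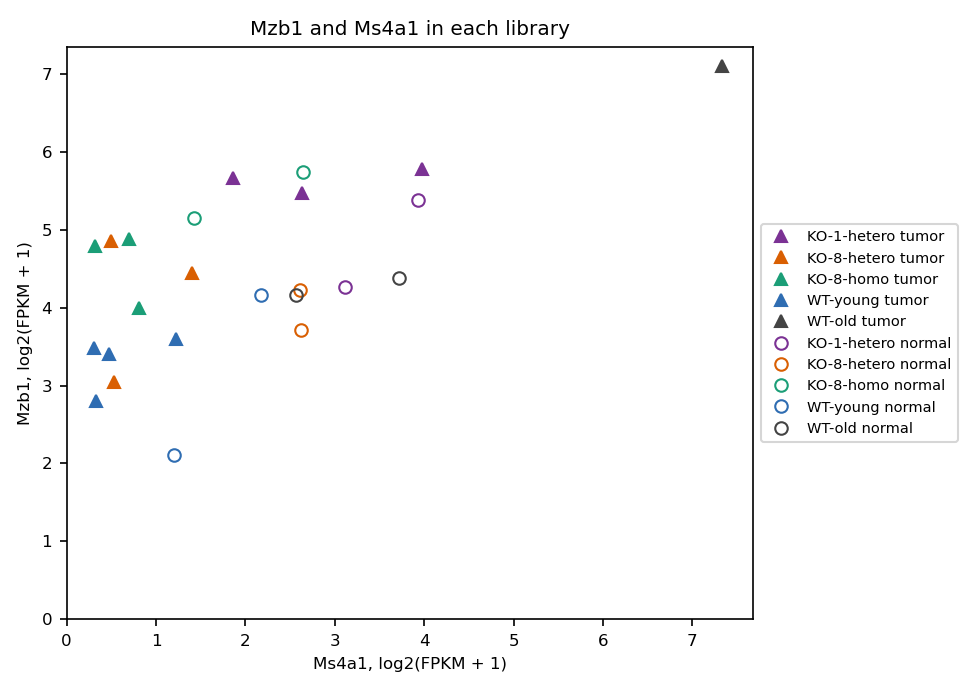
Mzb1 against Ms4a1, both as log2(FPKM + 1), 1 point per library, filled triangles for tumors and open circles for normal tissue. The ratios named here are of FPKM and cannot be read directly from the axes. The KO-8 tumors, with 12.7 to 108 times as much Mzb1 as Ms4a1, and the WT-young tumors, with 8.35 to 43.6 times, lie left of most normal libraries, and the WT-old tumor lies at the far right with a ratio of 0.853.

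The ratio of the plasma cell to the mature B cell gene was higher in most tumors than in most normal tissue. Mzb1 per Ms4a1 was 12.7, 16.3 and 68.6 in KO-8-hetero tumors and 46.1, 108 and 20.0 in KO-8-homo tumors. It was 23.4, 8.35, 43.6 and 24.8 in WT-young tumors, which overlapped both, and 3.66, 19.1 and 8.37 in KO-1-hetero tumors. Of the 10 normal libraries, 8 lay between 1.64 and 4.81, while the 2 KO-8-homo normal libraries were at 10 and 20.5. The highest ratios rest on low Ms4a1. It was at 0.247 FPKM in KO-8-homo tumor 2 (ratio 108), 0.410 FPKM in KO-8-hetero tumor 3 (68.6) and 0.233 FPKM in WT-young tumor 3 (43.6). Mzb1 itself had similar medians with the KO label, 28.1 FPKM in tumors and 26.5 FPKM in normal tissue. The ratio was not tested.

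The genes most like each member over the 24 libraries were mostly other B cell genes. Among the 3 nearest to Ms4a1 were Spib and H2-Ob (r of 0.982 and 0.980), and among those nearest to Pax5 were H2-Ob and Fcmr (both 0.975). For Cr2 and Cxcr5 the nearest gene was Fcer2a, the low-affinity receptor for immunoglobulin E, with r of 0.992 and 0.991. Cd79a and Cd79b were both nearest to Fcrla (0.960 and 0.973), and Cd22 was nearest to Ccr6 (0.988). Mzb1 was nearest to Derl3 (0.974), then Pou2af1 and Lax1. Cxcl13 had looser neighbours, among them H2-Ob at 0.881 and Fcer2a at 0.864. Over the 14 tumors alone, H2-Ob was again among the genes nearest to Ms4a1 (0.997) and Mzb1 was nearest to Derl3 (0.976), while Cxcl13 was nearest to Man1a, Dtx1 and Chst10 (0.912, 0.906 and 0.905).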

How the data were processed

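RNA of 24 colorectal pieces of AOM/DSS-treated mice was measured, extracted with a miRNeasy kit and prepared with a stranded TruSeq mRNA kit, per the labels' protocols. The authors deposited 1 table of FPKM per library, per the file headers. The submitters' processing notes name mm10, TopHat2 2.1.1, Bowtie2 2.2.8, SAMtools 0.1.18 and Cuffdiff 2.2.1, without their roles. Fragment totals are not known, so no counting interval is given.

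Values were taken as log2(FPKM + 1), which understates changes of low genes, with no further scaling. Genes with at least 1 FPKM in at least 4 libraries were kept (13799 of 24346, with 9 of 9 members). limma 3.58.1 (R 4.3.3, lmFit and eBayes with trend, two-sided) was fitted on all 24 libraries, with 4 cells of label and tissue or with 10 title groups, and p-values were adjusted by Benjamini-Hochberg over all genes, threshold 0.05. The fits were tested on simulated data. Groups came from the sample titles.

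The members, the 11 marker lists and the tests were chosen with earlier results of these data known. Beside the members, up to 3 called genes per list by p and the 3 genes nearest to each member by r are named, except some that are not reported here; genes of the WT-old tumor's lists were picked after their values were seen. Alternatives were a pseudocount of 0.1, no filter, median-ratio scaling, no WT-old libraries, a replicate block, only the compared groups, and leaving out each library. The comparisons of tumor and normal tissue within title groups were added after the data were seen. Symbols and positions were matched to RefSeq. Promoter windows were found for 5 of 9 members, and those that reached into an annotated exon or the gene were not printed. The motif patterns printed replaced longer ones searched earlier, a looser NF-kappa-B pattern among them, which had matched the Cr2 and Cxcl13 windows. Python 3.11.15, numpy 2.4.6, pandas 2.3.3 and matplotlib 3.10.9 were used.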

Additional observations from a re-analysis of the deposited data

Results flagged for a closer look

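Single libraries far from the rest of their group were looked for in 45 groups, each 1 gene in a set of 4 to 9 libraries, and 12 were found. The sets overlap and the genes vary together, so the 12 are not independent and no chance rate is set beside them. The set of KO-labelled tumors also pools title groups that differ in level. Of these, 8 were the WT-old tumor among the 5 WT-labelled tumors. It was at 404 FPKM for Cd79a (next 8.34), 273 FPKM for Cd79b (5.99), 160 FPKM for Ms4a1 (1.33), 75.7 FPKM for Cd22 (1.17), 35.6 FPKM for Cr2 (0.339), 31.3 FPKM for Pax5 (0.557), 57.9 FPKM for Cxcr5 (0.856) and 137 FPKM for Mzb1 (11.1).

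Among the 4 WT-young tumors, tumor 2 was far above the others for Cr2 at 0.339 FPKM (next 0.0324) and for Pax5 at 0.557 FPKM (next 0.0294). Among the 9 KO-labelled tumors, KO-1-hetero tumor 1 was far above for Cr2 at 6.02 FPKM (next 1.31). Among the 4 WT-labelled normal libraries, WT-young normal 2 was far below for Mzb1 at 3.32 FPKM (next 16.9).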

How the results depend on the processing

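The count of members called in KO-1-hetero against WT-young tumors moved most, from 6 to between 0 and 7 when 1 library was left out. For tumor against normal tissue it went from 0 to 1 without the WT-old libraries and with only the compared groups (KO label), and lay between 0 and 1 when 1 library was left out, with either label. For tumors against normal tissue within KO-8-hetero it went from 1 to 2 with a pseudocount of 0.1 and without the WT-old libraries and lay between 0 and 1 when 1 library was left out. Within KO-8-homo it went from 0 to 1 with a pseudocount of 0.1 and to 3 with only the compared groups, and within WT-young from 0 to 1 with a pseudocount of 0.1, and between 0 and 1 when 1 library was left out. In the other comparisons it kept its value of 0. The share of all genes called under an alternative is not reported here unless given above, so these counts alone do not single out the members. Over the gene values followed, 217 of 232 kept their direction and side of the threshold under the other alternatives, 7 lost and 6 gained a call and 2 reversed. The calls lost were those of Cd22 (3), Cxcr5 (3) and Cd79b (1) in KO-1-hetero against WT-young tumors. When 1 library was left out, 345 of 390 kept both, 24 lost and 3 gained a call and 18 reversed. For KO-labelled tumors against normal tissue the range was -0.10 to 0.29 for Cd22, -0.42 to 0.050 for Cr2 and -0.19 to 0.24 for Mzb1, and for the WT label -0.38 to 0.69 for Mzb1. Within KO-8-hetero it was -0.22 to 0.69 for Mzb1 and within WT-young -0.84 to 1.21. For KO against WT tumors it was -0.17 to 1.67 for Cd79a and -0.93 to 0.83 for Ms4a1, and 0.83 for Ms4a1 without the WT-old libraries. Where no cause is named, the cause was not tested. Values of Cr2 and Pax5 near 0 FPKM, and of Ms4a1 below 1 FPKM, are limited by depth.

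The titles do not say whether their replicate numbers pair the samples, and the values below cannot settle it. With 2 normal libraries per group, their deviations from the group mean mirror each other, so the correlations within a group are not independent. Deviations of same-numbered tumor and normal libraries correlated at -0.159 and 0.0348 for KO-1-hetero, 0.0481 and -0.0492 for KO-8-hetero, 0.0210 and -0.112 for the homozygous group and 0.355 and -0.157 for WT-young. With the replicate block 3 members were called in KO-1-hetero against WT-young tumors (Cd79a, Ms4a1 and Mzb1), with the share of all genes not reported here. The Ms4a1 value for WT-labelled tumors against normal tissue reversed to 0.98 with that block (limma adjusted p 0.488).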

Other observations

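Genes of the epithelium that covers follicles (Marcksl1, Tnfaip2, Clu and others, 7 tested) were also read. In KO-labelled tumors against normal tissue 4 of 7 were higher, where 47.2% of all genes were called in either direction. Among them were Marcksl1 by 2.94, Clu by 1.91 and Tnfaip2 by 1.56 on the log2 scale. Their limma adjusted p-values were 1.95e-06, 0.00108 and 4.49e-05. With the WT label 4 of 7 were also higher, where 30.4% of all genes were called in either direction. The shares called higher are not reported here. The sum of the listed genes was 1460 FPKM in the WT-old tumor, the sixth highest in a range of 435 to 1824 FPKM. Their mean log2(FPKM + 1) was the highest of the 24 libraries there, at 5.46 with 5.28 in KO-8-homo tumor 2 as the next. Of the 8 genes listed, 3 were highest there (13.4% of all genes were) and 2 exceeded the next library more than 2-fold, Sox8 at 2.76 times and Clu at 2.21 times. In KO-1-hetero against WT-young tumors Marcksl1 was lower, at -1.37 (limma adjusted p 0.0252), and 0 of 7 were higher. Several of these genes are also known from tumor cells and other epithelium.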
